A study of Mus musculus with 28 samples.

Results

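The interferon response genes described here are 34 genes that liver and immune cells switch on when interferons reach them, and they were chosen by name, as the genes whose array probes map through their RefSeq accession to a listed symbol. The list was made with earlier results of these data known. Of the 34 genes, 32 could be matched, with 45 probes, and all 32 passed the filter on dim probes, so that they stand among 20300 genes and transcripts tested. The remaining pair, Mx1 and Mx2, found no matching accession and no value is given for them. Liver RNA of Fah-/- mice was measured in 28 samples on 1-colour Agilent arrays, in 7 groups of 4 arrays. All mice carry Fah-/-, the loss of the last enzyme of tyrosine breakdown, and all depend on NTBC (nitisinone), a drug that blocks an earlier step of that pathway and so keeps toxic intermediates from forming. Fah-/- mice and Fah-/- p53-/- mice were each sampled on full NTBC (7.5 mg/L in drinking water), on reduced NTBC and on no NTBC, and Fah-/- p21-/- mice on no NTBC. The reduced dose is 25% of the full one in the sample labels and 2.5% for 3 months in the note on the series, so it is called reduced throughout. The age of the mice, the time without NTBC and whether each array is a separate mouse are not given in the sources used here, so p-values measure the spread between these arrays.

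Interferons signal through receptors at the cell surface to Janus kinases and STAT factors. Type I and type III interferons act through a complex that holds STAT2 and IRF9 and binds the interferon-stimulated response element (ISRE), and type II interferon (interferon gamma) acts through the gamma-activated site (GAS). The genes so induced block viral replication, sense foreign or misplaced nucleic acid, tag proteins with the ubiquitin-like ISG15 and load peptides for display to T cells. In liver, hepatocytes, Kupffer cells and endothelial cells all carry receptors for interferons and respond to them.

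Promoter sequence was at hand for 25 of the 32 genes, from RefSeq on GRCm38.p6. The 250 bases before each annotated start were searched on both strands for an ISRE core, GAAANNGAAA, and for a GAS, TTCNNNGAA, and matches of either motif could overlap each other. The ISRE core was found in 12 of the 25 genes (48%), against 3.46% of the 27025 genes in the same table and 2.98% of its 32851 windows. The GAS was found in 6 of the 25 (24%), against 8.13% of all genes. A match is a string of letters, not a measured binding site. The stretches of 160 bases that follow are shown because their genes carry the main results: Ifit3, Ifit1, Isg15 and Gbp2 were lower in Fah-/- p21-/- liver, Oas1a rose without NTBC, and Xaf1, with no match in its window, was lower in both double mutants. Capitals mark ISRE matches on either strand. The stretches are chr19:34583369-34583528 (+ strand) for Ifit3, chr19:34640729-34640888 (+) for Ifit1, chr4:156200819-156200978 (-) for Isg15, chr3:142620503-142620662 (+) for Gbp2, chr5:120907526-120907685 (-) for Oas1a and chr11:72301469-72301628 (+) for Xaf1.
Ifit3: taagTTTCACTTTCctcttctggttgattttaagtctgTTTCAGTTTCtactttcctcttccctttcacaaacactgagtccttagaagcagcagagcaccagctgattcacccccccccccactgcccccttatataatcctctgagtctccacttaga
Ifit1: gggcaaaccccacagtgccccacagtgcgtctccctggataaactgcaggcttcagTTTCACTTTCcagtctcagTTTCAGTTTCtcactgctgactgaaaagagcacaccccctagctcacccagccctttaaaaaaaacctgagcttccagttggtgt
Isg15: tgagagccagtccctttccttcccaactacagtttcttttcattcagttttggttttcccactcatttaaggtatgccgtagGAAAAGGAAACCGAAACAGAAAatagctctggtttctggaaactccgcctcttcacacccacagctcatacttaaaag
Gbp2: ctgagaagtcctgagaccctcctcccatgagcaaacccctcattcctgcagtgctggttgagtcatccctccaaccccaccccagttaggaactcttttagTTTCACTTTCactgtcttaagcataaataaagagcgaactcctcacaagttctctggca
Oas1a: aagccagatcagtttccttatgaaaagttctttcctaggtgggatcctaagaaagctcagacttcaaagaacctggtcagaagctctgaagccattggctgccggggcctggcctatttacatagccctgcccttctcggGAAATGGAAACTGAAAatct
Xaf1: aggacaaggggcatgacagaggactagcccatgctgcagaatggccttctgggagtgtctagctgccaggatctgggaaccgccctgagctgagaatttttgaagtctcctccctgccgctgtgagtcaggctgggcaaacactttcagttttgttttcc
Ifit1 and Ifit3 each held 2 separate matches, and the 3 of Isg15 and the 2 of Oas1a overlap one another. Of the 10 genes that were lower after p21 loss, 4 held an ISRE match, and these are the first 4 printed.

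Levels are log2 intensities relative to the 75th percentile of their array, so 0 means as bright as that percentile, and they compare a gene between arrays but not with another gene. Between 54.8% and 68.5% of probes stood above background per array, and no value of these genes was saturated. The array of Fah-/- p53-/- without NTBC, replicate 1, stands apart: over all genes tested, its differences from the mean of the other arrays of its group had an SD of 0.79 on the log2 scale, and those of the remaining arrays had SDs of 0.29 to 0.66. By the scan dates each dose was scanned in a year of its own, so dose and scan year cannot be told apart. On full and reduced NTBC each genotype filled its own slide. Without NTBC replicates 1 and 2 of Fah-/- p53-/- and of Fah-/- p21-/- shared a slide. Replicates 3 and 4 of Fah-/- p21-/- shared one with replicates 3 and 4 of Fah-/-, and replicates 3 and 4 of Fah-/- p53-/- with replicates 1 and 2 of Fah-/-. The slide of the array that stands apart also held the arrays of the next highest SDs, Fah-/- p21-/- replicates 1 (0.66) and 2 (0.55), and Fah-/- p53-/- replicate 2 (0.44). By Xist and Ddx3y all 4 Fah-/- p53-/- arrays without NTBC and replicates 1 and 2 of Fah-/- p21-/- are female and all others male, so that p53 loss and sex cannot be told apart without NTBC. Within Fah-/- p21-/- liver sex and slide cannot be told apart. Cdkn1a, the p21 gene, read 3.24 ± 0.22 (SD, n = 4) in Fah-/- p21-/- liver and 4.28 ± 0.10 in Fah-/- liver without NTBC, and Trp53, the p53 gene, read 1.22 ± 0.18 and 1.41 ± 0.09 in Fah-/- p53-/- and Fah-/- liver on full NTBC. Where these probes lie relative to the deleted parts was not analysed here, so they check neither genotype label. Results that rest on the array that stands apart are given with and without it, and that choice was made after its values had been seen.

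Averaged over the 32 genes, the log2 level was 0.87 ± 0.17 (SD, n = 4) in Fah-/- liver on full NTBC, 0.60 ± 0.18 on reduced NTBC and 0.88 ± 0.35 on none. Fah-/- p53-/- liver read 0.94 ± 0.32, 0.55 ± 0.28 and 0.60 ± 0.90 at the same doses. Fah-/- p21-/- liver without NTBC read 0.07 ± 0.29, with single arrays at -0.29, 0.18, -0.01 and 0.39. All 4 of these lay under the lowest Fah-/- array without NTBC, at 0.48. On the array that stands apart the average was -0.73, while the other 3 arrays of its group read 1.24, 0.86 and 1.04.

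**Figure D1:**
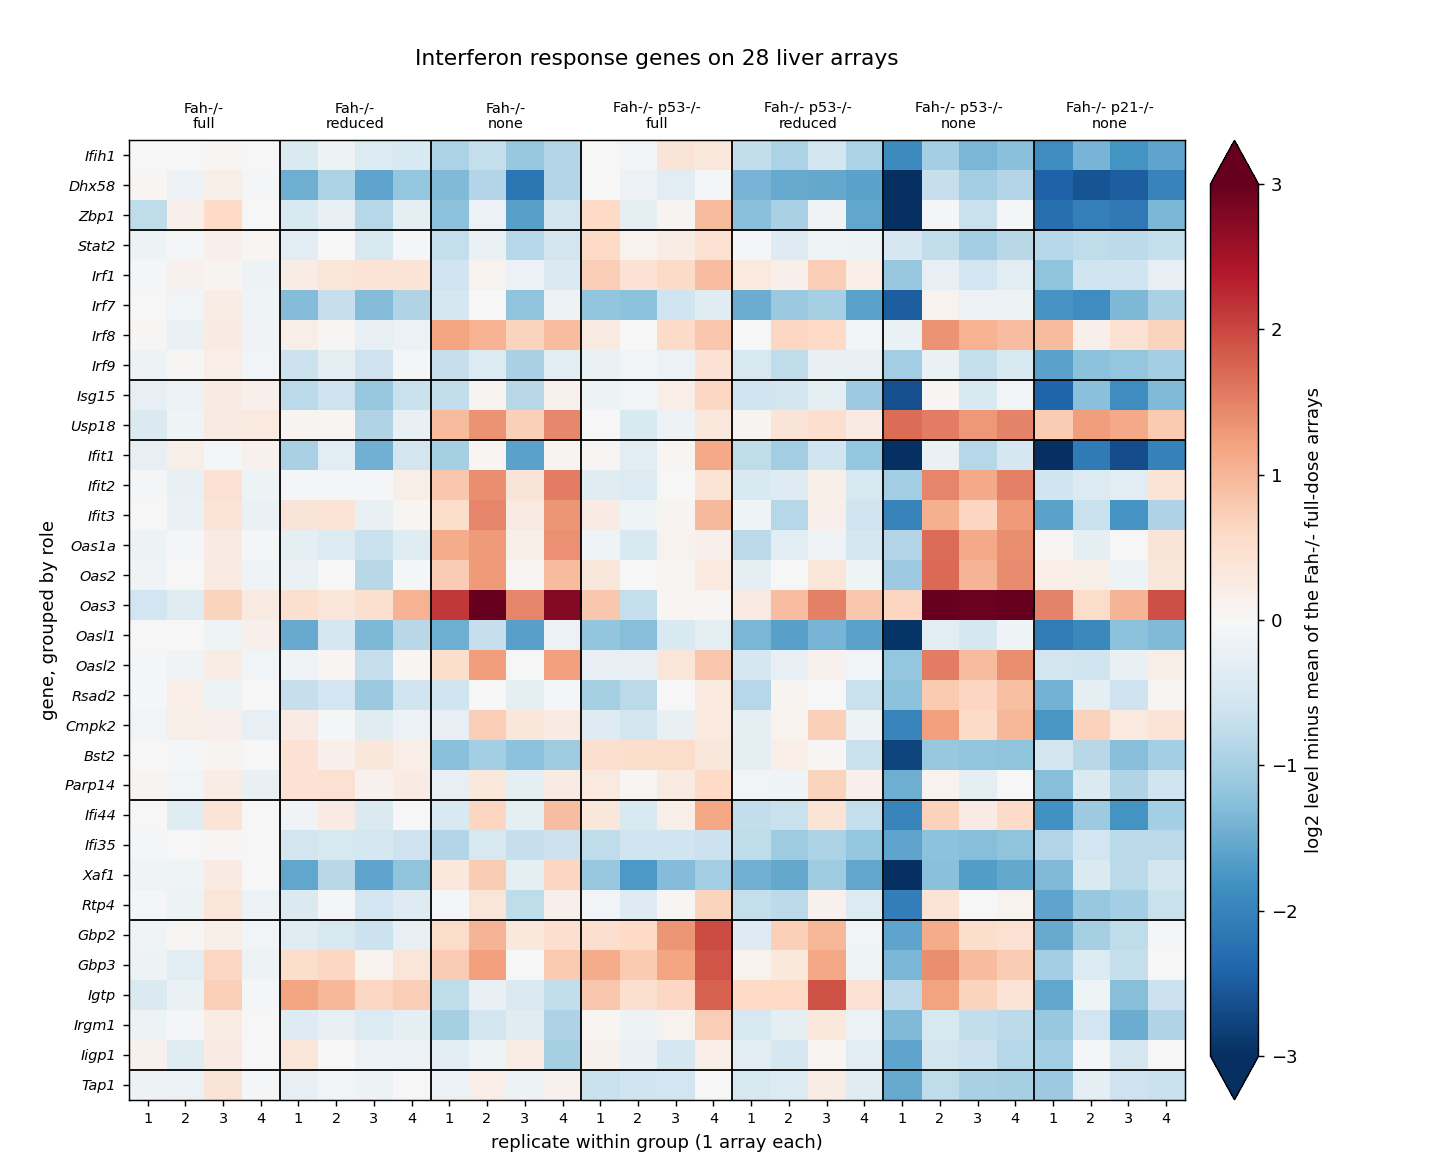
Log2 level of each of the 32 interferon response genes (rows, grouped by role) on each of 28 arrays (columns, 4 per group), minus the mean of the 4 Fah-/- full-dose arrays, with red higher and blue lower. Fah-/- p21-/- arrays and replicate 1 of Fah-/- p53-/- without NTBC are blue in most rows, while Usp18 and Irf8 are red and Dhx58 and Bst2 blue in most arrays without NTBC.

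The labels place Fah-/- p21-/- mice beside Fah-/- mice only without NTBC, which asks what p21 loss does in the injured liver. There 31 of the 32 interferon response genes read lower in Fah-/- p21-/- liver, and 10 passed the test (limma, Benjamini-Hochberg adjusted p under 0.05), all lower, or 31.25% of the genes. Over all genes tested 3.59% were lower and 3.94% higher, and the median log2 change was -0.77 for the interferon response genes and 0.02 for all. As the 32 genes were chosen with earlier results of these data known, this contrast with all genes is descriptive. The exception to the shared sign was Bst2, the membrane tether that holds budding virus back, at 0.22 (SE 0.245) with an adjusted p of 0.632.

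The antiviral effectors gave the deepest falls. Ifit3, an RNA-binding tetratricopeptide protein of the antiviral IFIT complex, read 1.99, 2.92, 1.73 and 2.77 on the 4 Fah-/- arrays and -0.16, 0.78, -0.32 and 0.53 on the 4 Fah-/- p21-/- arrays. The groups do not overlap, and Ifit3 was 4.42-fold lower (log2 change -2.15, SE 0.479, adjusted p 0.00806). Ifit3b, a near-identical copy that the same RNA could light up, gave -2.06 (adjusted p 0.0138). Ifit1, which binds viral RNA with an unmethylated cap, read -2.11, -1.08, -2.73 and -1.03 in Fah-/- liver and -4.50, -3.25, -3.80 and -3.16 in Fah-/- p21-/- liver. It was 3.83-fold lower (-1.94, SE 0.512, adjusted p 0.0225), with no overlap. Ifit2 was 2.4-fold lower (adjusted p 0.0479), and its groups overlap, since the highest Fah-/- p21-/- array (-2.16) lay above the lowest Fah-/- array (-2.19). Genes of the 2'-5' oligoadenylate synthetases and their relatives did not pass: Oas1a gave -0.95 (adjusted p 0.108), Oas2 -0.61, Oas3 -1.09, Oasl1 -0.66 and Oasl2 -1.06. Nor did Rsad2 (viperin, -0.33), its neighbour Cmpk2 (-0.35) or the ADP-ribosyltransferase Parp14 (-0.81).

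Isg15 itself fell. It read 0.90, 1.73, 0.80 and 1.76 in Fah-/- liver and -0.76, 0.39, -0.22 and 0.30 in Fah-/- p21-/- liver. The groups do not overlap and the level was 2.58-fold lower (-1.37, SE 0.400, adjusted p 0.0375). Usp18, the protease that takes ISG15 off proteins and damps the type I receptor, read 1.55 ± 0.34 against 1.42 ± 0.25 (SD, n = 4 each), a change of -0.13 (adjusted p 0.758). Ifi44, an interferon-induced gene of unsettled function, read -1.98, -0.88, -1.79 and -0.58 against -3.34, -2.59, -3.30 and -2.54, and was 3.11-fold lower (adjusted p 0.0286). Xaf1, a pro-apoptotic antagonist of the inhibitor of apoptosis XIAP, was 2.21-fold lower (adjusted p 0.0236), while Rtp4 gave -1.04 (adjusted p 0.092) and Ifi35 -0.09.

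Among sensors and regulators, 1 of 3 and 1 of 5 fell. Ifih1 (MDA5), which senses long double-stranded RNA, had the smallest adjusted p of all 32 genes: it read 0.70, 0.93, 0.53 and 0.78 against -0.20, 0.25, -0.13 and 0.07, with no overlap (-0.74, SE 0.153, adjusted p 0.00465). Dhx58 (LGP2), its partner helicase, gave -1.06 (adjusted p 0.0537), and Zbp1, which senses Z-form nucleic acid, -1.05 (adjusted p 0.268). Irf9, the DNA-binding part of the type I complex, was 1.58-fold lower (adjusted p 0.0354). The other factors gave -0.20 for Stat2, -0.38 for Irf1, -0.39 for Irf8 and -1.01 for Irf7, and none of them passed.

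Of the 5 genes for guanosine triphosphatases that interferon gamma induces, Gbp2 fell. It read 0.54, 1.01, 0.30 and 0.50 against -1.53, -1.01, -0.78 and -0.07, and was 2.69-fold lower (adjusted p 0.0402). Gbp3 gave -1.23 (adjusted p 0.0726), Igtp -0.37, Irgm1 -0.32 and Iigp1 -0.08. Tap1, the peptide pump of class I antigen presentation, was 1.59-fold lower (adjusted p 0.0356).

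**Figure D2:**
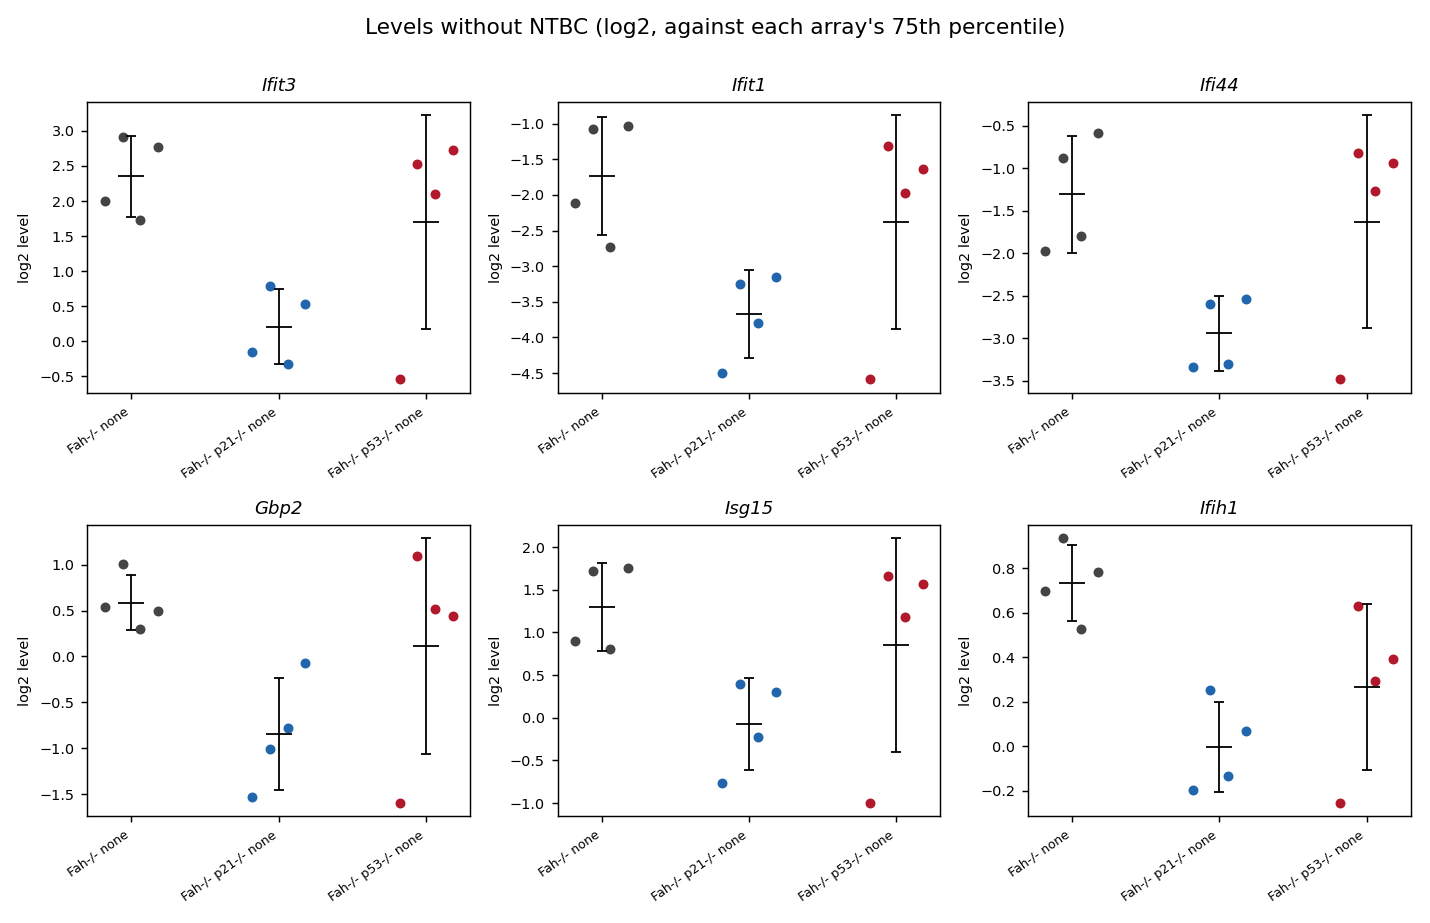
Log2 level of 6 genes on the 4 arrays of each genotype without NTBC (points), with the mean and SD of the group as a black mark and bar. The blue Fah-/- p21-/- points lie under all grey Fah-/- points in each panel, and 1 red Fah-/- p53-/- point, replicate 1, lies far under the other 3.

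How many of the 32 genes passed depended on the spread, the slide and the processing. Normexp background correction left 1 gene lower, the compared groups alone 2 and no filter on dim probes 5. Of all genes 0.369%, 0.798% and 1.62% were then lower. Under 21 alternatives Gbp2 lost its call in 12, Isg15 in 10, Ifi44 in 9, Ifit1 in 8 and Ifit3 in 2. All 7 groups share their estimate of the spread, and without the array that stands apart 17 genes were lower, adding Gbp3, Oasl2, Dhx58, Rtp4, Irf7, Oas1a and Parp14, while 5.23% of all genes were then lower. On 1 sex (males) 2 passed, Ifit3 (-2.25, adjusted p 0.0437) and Ifih1 (-0.77, adjusted p 0.0312). None passed within the slide that holds both genotypes, where 29 of 32 were negative with a median of -0.56 and Ifit3 gave -2.15 (limma, adjusted p 0.118), or with the slide as a fixed block, where 28 were negative and Ifit3 gave -1.67 (adjusted p 0.389). The fits on males and within the slide share their Fah-/- p21-/- arrays, replicates 3 and 4. Of Fah-/- liver the slide holds only replicates 3 and 4, so these fits are not separate checks. Leaving out Fah-/- replicate 2, Fah-/- replicate 4 or Fah-/- p21-/- replicate 1 left 2 genes past the threshold each, and leaving out Fah-/- p21-/- replicate 3 left 4.

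Some markers of lymphocytes were lower as well, and as a set they were dim. Mean log2 levels were -3.71 in Fah-/- and -4.40 in Fah-/- p21-/- liver for T and NK markers, and -2.92 and -3.89 for B cell markers. The summed level of 13 T and NK cell markers ran from 0.638 to 1.14 in Fah-/- p21-/- liver and from 1.27 to 2.16 in Fah-/- liver, and 1 of the 13, Cd8a, was lower (-2.66, adjusted p 0.0326). For 5 B cell markers the ranges were 0.463 to 0.663 and 0.914 to 1.49, and 3 of the 5 were lower, led by Ms4a1 (-1.85) and Cd79b (-1.48). None of 12 macrophage and Kupffer cell markers (summed level 86.1 to 242 against 110 to 413), 6 dendritic cell markers, 4 neutrophil markers or 7 endothelial markers passed (0, 1, 0 and 3 of them at an unadjusted p under 0.05), and 1 of 8 hepatocyte markers, Serpina1c, was lower. The part of these cells in the result was not tested. In whole liver, fewer cells of a type and less RNA per cell cannot be told apart.

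After p53 loss without NTBC, none of the 32 genes was higher and 4 were lower than in Fah-/- liver, while 7.65% of all genes were higher and 6.6% lower. The median change was -0.25 for the interferon response genes and 0.01 for all. Xaf1 fell furthest: it read 0.13, 0.56, -0.47 and 0.45 in Fah-/- liver and -3.37, -1.45, -1.86 and -1.73 in Fah-/- p53-/- liver. The groups do not overlap, and the level was 4.83-fold lower (limma, -2.27, SE 0.305, adjusted p 3.42e-05). Tap1 was 2.09-fold lower (adjusted p 0.000804), Ifi35 1.57-fold lower (adjusted p 0.000141) and Ifih1 1.38-fold lower (adjusted p 0.0422). Without the array that stands apart, Igtp (1.29, adjusted p 0.0189) and Rsad2 (1.02, adjusted p 0.0255) were higher, Xaf1, Tap1 and Ifi35 stayed lower, and Ifih1 no longer passed. The slide as a fixed block left none past the threshold, with Xaf1 at an adjusted p of 0.0532.

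**Figure D3:**
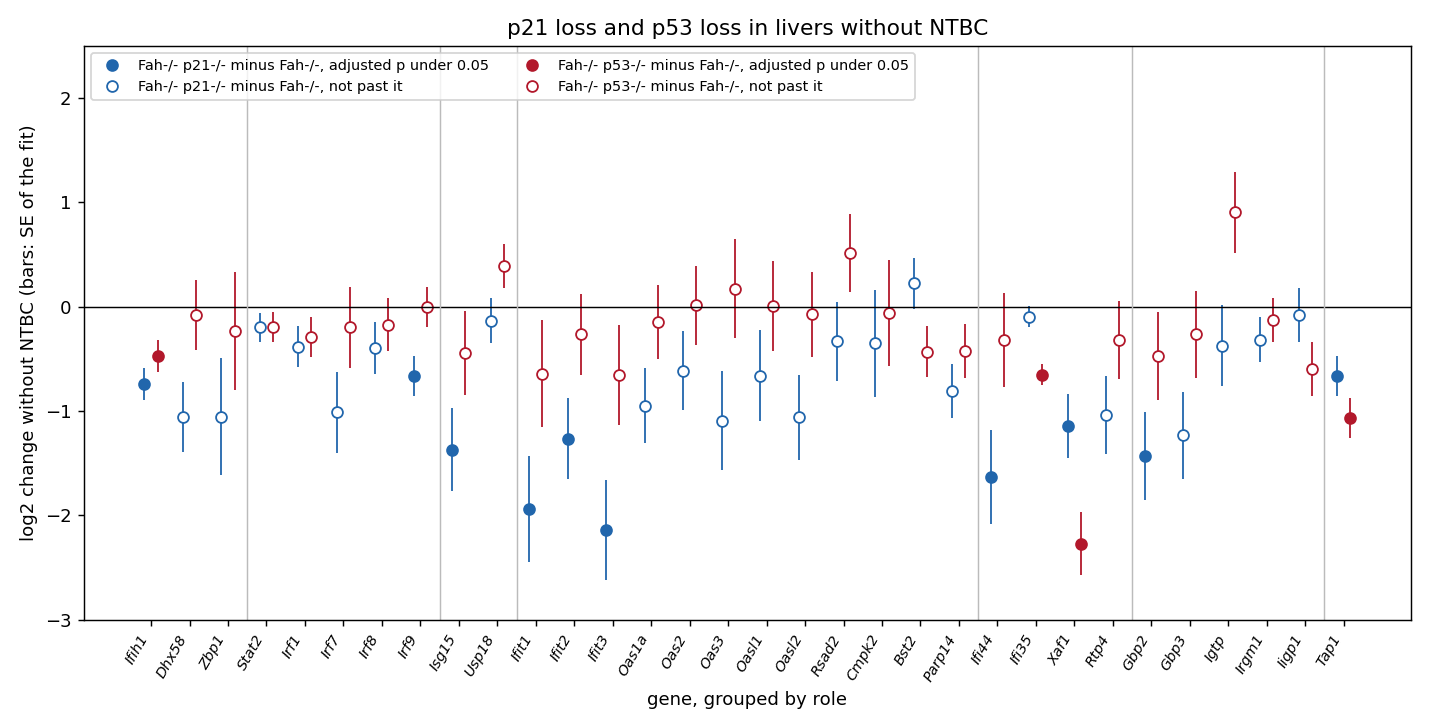
Log2 change of each of the 32 genes without NTBC after p21 loss (blue) and after p53 loss (red), each against the same 4 Fah-/- arrays, with the SE of the fit as bars and filled points for an adjusted p under 0.05. The 10 filled blue points all lie under 0, and Xaf1, Tap1, Ifi35 and Ifih1 are the 4 filled red points.

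Setting the double mutants against each other gives the comparison that depends most on a single array. With all arrays 27 of the 32 genes read higher in Fah-/- p53-/- than in Fah-/- p21-/- liver, and 3 passed as higher (5.04% of all genes) and 2 as lower (5.96%), with a median difference of 0.69 against 0.00 for all genes. Ifit3 read -0.55, 2.52, 2.09 and 2.73 in Fah-/- p53-/- liver against -0.16, 0.78, -0.32 and 0.53, and was 2.82-fold higher (limma, 1.49, SE 0.479, adjusted p 0.0456). Igtp (IRGM3) was 2.43-fold higher (adjusted p 0.0343) and Irf9 1.58-fold higher (adjusted p 0.0274). On the low side stood Xaf1, 2.18-fold lower (adjusted p 0.0181), and Ifi35, 1.47-fold lower (adjusted p 0.000699).

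Without replicate 1 of Fah-/- p53-/- liver, 21 genes were higher and 2 lower in that comparison, and the median difference was 1.30, while 8.99% of all genes were higher and 9.06% lower. Among the highest were Ifit3 (2.24, adjusted p 7.56e-05), Ifit1 (2.03, adjusted p 0.00094), Ifi44 (1.93, adjusted p 0.000772) and Zbp1 (1.71, adjusted p 0.00315). Dhx58 was higher by 1.51 (adjusted p 9.55e-05), Isg15 by 1.54 (adjusted p 0.000604) and Oas1a by 1.37 (adjusted p 0.000369). On females alone and without that array, 21 were higher and 1 lower, against 7.88% and 8.26% of all genes. Of Fah-/- p21-/- liver the females are replicates 1 and 2 only. With the slide as a fixed block none passed (limma), with a median difference of 0.55 on all arrays and 1.26 without that array. With it kept, leaving out Fah-/- p21-/- replicate 1, 3 or 4 or Fah-/- p53-/- replicate 2, 3 or 4 left 2 or 3 genes past the threshold.

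On the array that stands apart the summed linear level of the 32 genes was 70.4, and on the Fah-/- p21-/- arrays it ran from 101 to 156. Not every gene was low on it: Usp18 read 2.12, the highest of its group, where the other 3 arrays read 1.97, 1.75 and 1.93, and Stat2 read 2.01 against 1.78, 1.47 and 1.68. Lymphocyte markers were low on it as well: the summed level of the T and NK markers was 0.366, where the other 3 arrays gave 1.78, 1.75 and 1.26, and that of the B cell markers 0.281, where they gave 1.07, 0.821 and 0.645. Macrophage and Kupffer cell markers summed to 129 against 254, 249 and 213, and hepatocyte markers to 669 against 669, 679 and 633. The part of these cells in the low levels was not tested.

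**Figure D4:**
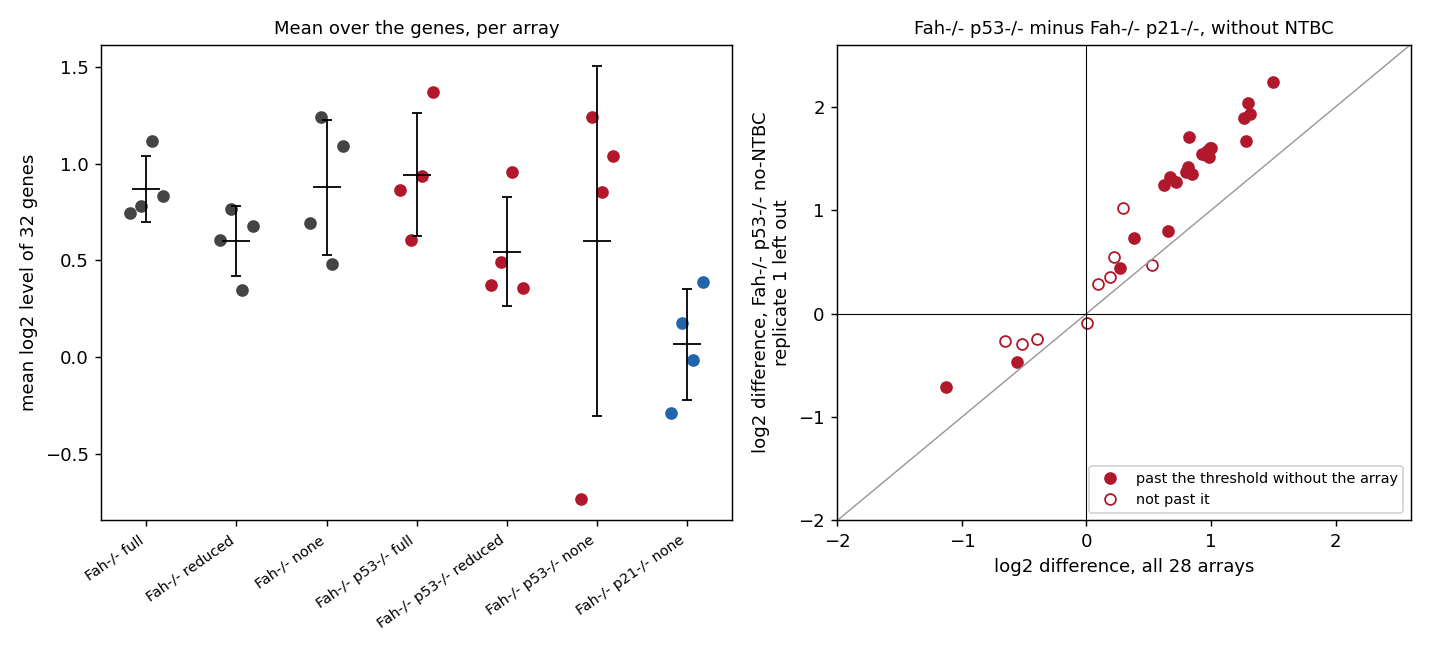
Left, mean log2 level of the 32 genes on each array (points) with the mean and SD of each group, where replicate 1 of Fah-/- p53-/- without NTBC lies at -0.73. Right, the log2 difference of each gene between Fah-/- p53-/- and Fah-/- p21-/- liver without NTBC with all arrays (x axis) and without that array (y axis), with equality as a line and filled points for the 23 genes past the threshold without it.

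On full NTBC 2 of the 32 genes were higher and 2 lower after p53 loss, and 6.34% of all genes were higher and 7.59% lower. Xaf1 read -0.31, -0.31, 0.06 and -0.21 in Fah-/- liver and -1.32, -1.91, -1.50 and -1.24 in Fah-/- p53-/- liver. The groups do not overlap, and the level was 2.46-fold lower (limma, -1.30, SE 0.305, adjusted p 0.00547), although with normexp background correction the change was -0.42 (adjusted p 0.203). Gbp3 was 2.37-fold higher (adjusted p 0.0494) and Irf1, a factor that activates interferon and its targets, 1.59-fold higher on the probe used (adjusted p 0.0233), with its second probe at 0.26 (adjusted p 0.455). Under 18 alternatives Gbp3 lost its call in 10 and Irf1 in 6. Summed levels of T and NK cell markers were 1.47 to 2.23 in Fah-/- liver and 2.27 to 2.99 in Fah-/- p53-/- liver, with 3 of 13 higher, and 3 of 8 hepatocyte markers were lower. The part of these cells in the result was not tested. Without the array that stands apart, which has no part in this comparison beyond the shared spread, 7 passed, with Gbp2 and Bst2 added as higher and Irf7 as lower. Of all genes 7.9% were then higher and 9.13% lower. With it kept, 2 passed after leaving out replicate 1 or 4 of Fah-/- liver or replicate 1 of Fah-/- p53-/- liver.

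Ifi35, which binds its partner Nmi and enters innate signalling, is the gene that was lower after p53 loss at every dose. On full NTBC it read 2.89, 2.94, 2.95 and 2.93 in Fah-/- liver and 2.17, 2.32, 2.34 and 2.29 in Fah-/- p53-/- liver (-0.65, adjusted p 6.64e-05). On reduced NTBC it read 2.38, 2.44, 2.40 and 2.32 against 2.16, 1.87, 1.98 and 1.78 (-0.44, adjusted p 0.00389), and without NTBC 2.06, 2.44, 2.23 and 2.29 against 1.34, 1.70, 1.64 and 1.73 (-0.65). The groups do not overlap at any dose, and the level was 1.57-fold lower on full, 1.35-fold on reduced and 1.57-fold without NTBC. On reduced NTBC the call was lost with normexp background correction (limma, adjusted p 0.436). Without NTBC it was lost with the slide as a fixed block (limma, adjusted p 0.0716), also with the array that stands apart left out. There p53 loss and sex cannot be told apart. On reduced NTBC Ifi35 was the only one of the 32 genes past the threshold, and 5.8% of all genes were lower and 9.84% higher. Without the array that stands apart 3 passed as lower (7.07% of all genes), Ifi35, Bst2 and Ifih1, and without Fah-/- p53-/- replicate 3 of the reduced dose 2 did (3.98%). Each genotype filled its own slide on full and on reduced NTBC, so slide and genotype cannot be told apart there. Xaf1 did not pass on reduced NTBC, at -0.11, since it read -1.49 ± 0.36 in Fah-/- liver and -1.60 ± 0.23 in Fah-/- p53-/- liver.

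Between doses of NTBC the interferon response genes differed in both directions. Dose and scan year cannot be told apart in this or any other comparison of doses. In Fah-/- liver without NTBC against full NTBC, 5 of the 32 genes were higher and 8 lower, while 29.3% of all genes were higher and 41.6% lower. The median change was -0.15 for these genes and -0.17 for all genes, and with quantile normalization 0.13 and 0.01. A smaller share of these genes than of all genes passed in each direction.

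Usp18 read 0.01, 0.31, 0.71 and 0.73 on full NTBC and 1.39, 1.78, 1.15 and 1.89 on none, and was 2.16-fold higher with no overlap (limma, 1.11, SE 0.212, adjusted p 6.53e-05). Oas1a was 1.97-fold higher (adjusted p 0.0176) and Ifit2 2.04-fold higher (adjusted p 0.0216). Irf8, a factor of macrophages and dendritic cells as well as an interferon target, was 1.93-fold higher (adjusted p 0.00184), and all 12 macrophage and Kupffer cell markers were higher in the same comparison, with summed levels of 110 to 413 without NTBC and 59.5 to 96.2 on full NTBC. The part of these cells in the result was not tested. Oas3 was not well above background on any full-dose array and on all 4 arrays without NTBC, a level at least 2.53-fold higher, while with normexp background correction its change was -0.042. It passed the filter on dim probes only through the 2 groups without NTBC in which all 4 arrays measured it, so it had to differ here and no test of it is given. It is counted among the higher genes of each comparison of no NTBC with another dose. A bound of this kind sets the mean of the bright group against the lowest signal well above background on the arrays of the dim group.

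The 8 lower genes were the sensors Dhx58 and Ifih1, the transcription factors Irf9 and Stat2, the antiviral effectors Bst2 and Oasl1, Ifi35 and the GTPase Irgm1. Dhx58 read 0.12, -0.11, 0.24 and -0.01 on full NTBC and -1.26, -0.83, -2.12 and -0.83 on none, 2.5-fold lower with no overlap (adjusted p 0.00125). Bst2 lay between 4.93 and 5.07 on the 4 full-dose arrays and read 3.75, 3.98, 3.77 and 3.94 on the others, 2.2-fold lower with no overlap (adjusted p 0.000245). Ifih1 was 1.89-fold lower (adjusted p 1.13e-05), Ifi35 1.59-fold, Irf9 1.51-fold, Stat2 1.5-fold and Oasl1 1.98-fold lower. Irgm1 was 1.63-fold lower on the probe used (adjusted p 0.0052), while its second probe gave -0.11 (adjusted p 0.668). Isg15 (-0.34), Ifit1, Ifit3, Irf7, Rsad2, Zbp1, Gbp2 and Tap1 did not pass.

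On reduced against full NTBC none of the 32 genes was higher and 4 were lower in Fah-/- liver, against 17.4% and 22.3% of all genes. Xaf1 read -1.75, -1.02, -1.79 and -1.40 on reduced NTBC, 2.45-fold below the full dose (limma, adjusted p 0.00168), and with normexp background correction its change was -0.82 (adjusted p 0.0542). Dhx58 was 2.44-fold lower (adjusted p 0.00379), Irf7, the factor that sustains type I interferon output, 2.07-fold (adjusted p 0.0331) and Ifi35 1.46-fold (adjusted p 0.000139). With these groups fitted alone 15 passed, 3 higher and 12 lower (19.1% and 25% of all genes). Without the array that stands apart 9 did, 1 higher and 8 lower (18.8% and 24%). With normexp 1 passed, and 3 did without Fah-/- replicate 1 or 2 on full NTBC or replicate 1 or 3 on reduced NTBC. Irf7 lost its call in 6 of 18 alternatives. Of 8 hepatocyte markers 6 were lower, with summed levels of 2131 to 2525 on full and 1274 to 1481 on reduced NTBC, and their part in the result was not tested.

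From reduced to no NTBC in Fah-/- liver, 8 were higher and 5 lower, against 26.1% and 38.1% of all genes, with medians of 0.28 and -0.15. Xaf1 was 3.15-fold higher, back at 0.13, 0.56, -0.47 and 0.45 (adjusted p 5.91e-05). Of the 3 doses in Fah-/- liver, Xaf1 was low on the reduced one. Oas1a was 2.67-fold higher (adjusted p 0.00142) and Usp18 2.56-fold (adjusted p 8.26e-06). Oas3 was at least 2.72-fold higher, while normexp gave 0.26. Levels of Oas2, Gbp2, Ifit2 and Irf8 rose by 2 to 2.05-fold. Bst2 was 2.68-fold lower (adjusted p 2.66e-05). Igtp read 4.91, 4.70, 4.34 and 4.45 on reduced NTBC and 2.96, 3.50, 3.28 and 2.98 on none, 2.67-fold lower with no overlap (adjusted p 0.00294), and Irf1, Ifih1 and Stat2 were lower by 1.55-fold or less.

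**Figure D5:**
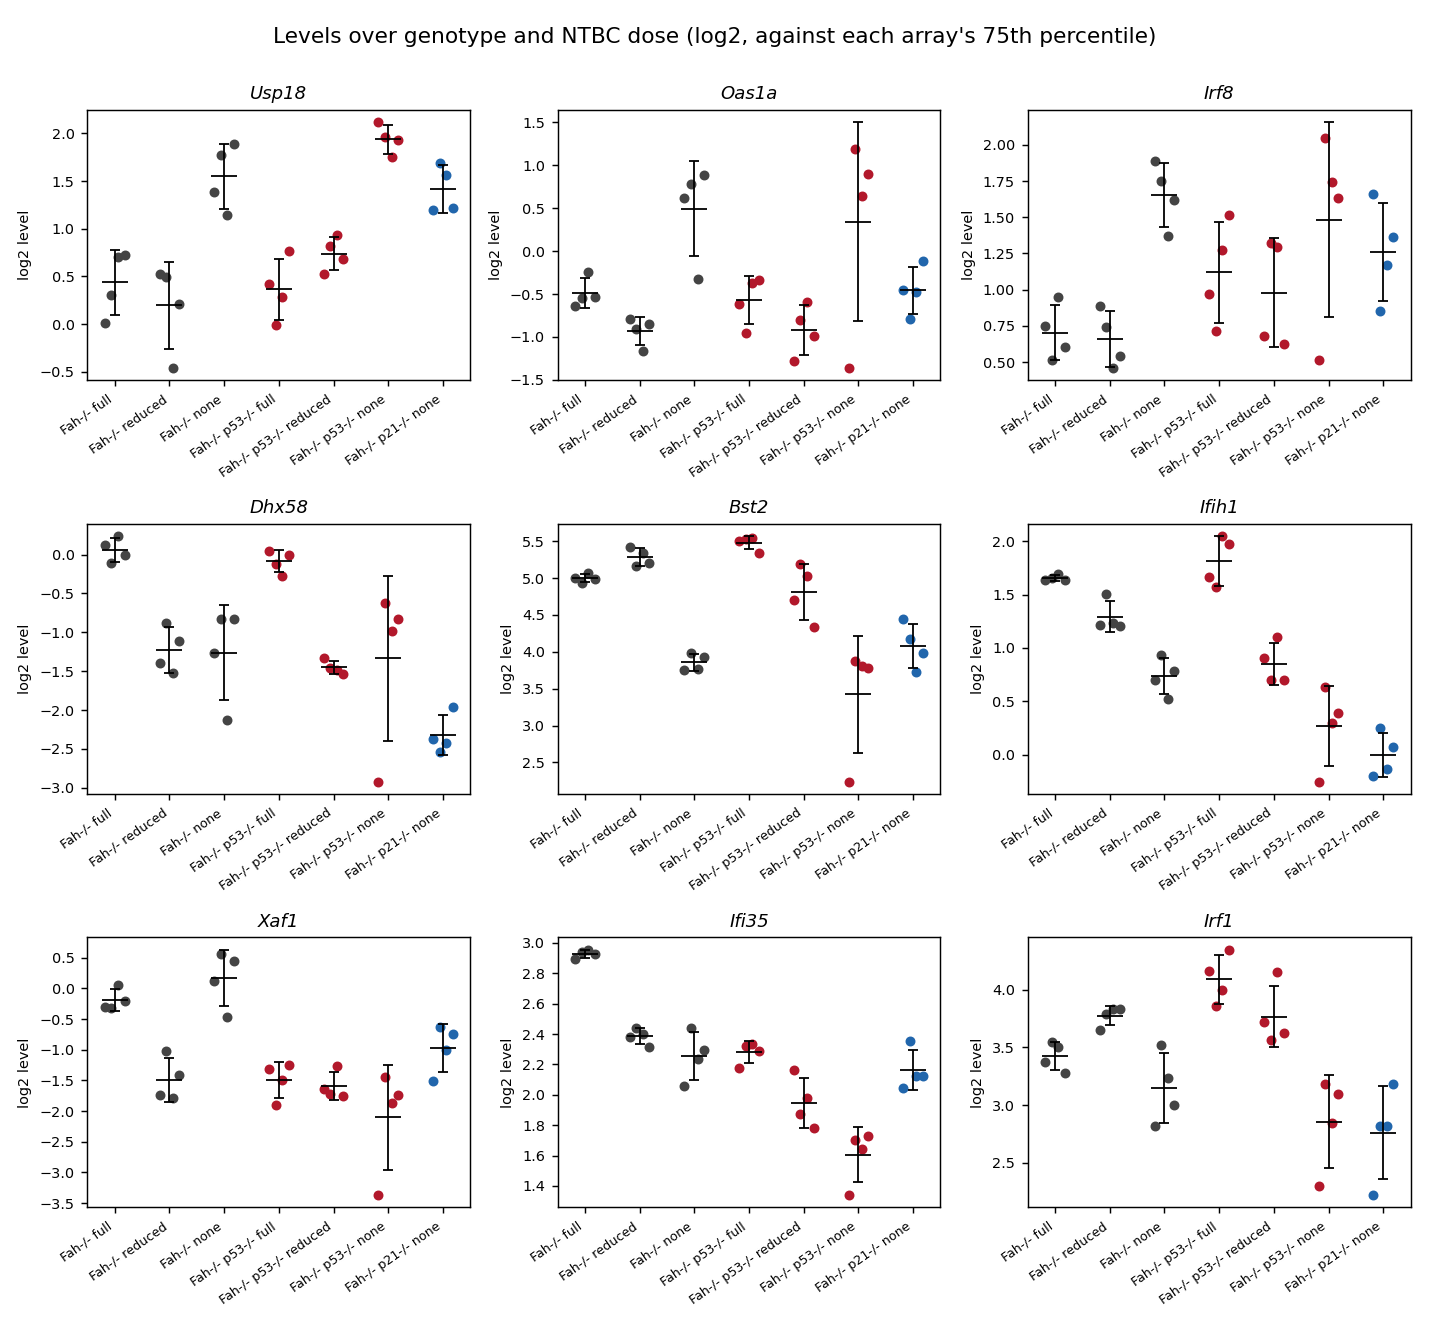
Log2 level of 9 genes on the 4 arrays of each of the 7 groups (points; grey Fah-/-, red Fah-/- p53-/-, blue Fah-/- p21-/-), with the mean and SD of each group as a black mark and bar. Usp18 is high in all 3 groups without NTBC, Bst2 is low there, Dhx58 is high on full NTBC alone, and Ifi35 of Fah-/- p53-/- lies under Fah-/- at each dose.

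In Fah-/- p53-/- liver the same steps gave the following counts. On reduced against full NTBC none was higher (20.3% of all genes) and 5 were lower (19.6%): Dhx58 by 2.58-fold (limma, adjusted p 0.00238), Ifih1 by 1.95-fold (adjusted p 3.33e-05), Bst2 by 1.59-fold (adjusted p 0.0339), Stat2 by 1.44-fold and Ifi35 by 1.26-fold. With normexp background correction Bst2, Stat2 and Ifi35 gave 0.095, 0.021 and 0.13. Without the array that stands apart 9 were lower (21.1%), with Zbp1, Ifit1, Gbp3 and Isg15 added. On none against full NTBC 3 were higher (29.6%) and 15 lower (40.1%), and without the array that stands apart 10 (29.8%) and 10 (40.1%). Usp18 read 0.42, -0.01, 0.28 and 0.76 on full NTBC and 2.12, 1.97, 1.75 and 1.93 on none, 2.98-fold higher (adjusted p 5.99e-07), and Oas3 was at least 3.00-fold higher, although normexp gave -0.32. Bst2 read 5.50, 5.53, 5.54 and 5.35 against 2.24, 3.87, 3.80 and 3.78, 4.15-fold lower (adjusted p 9.14e-08). Ifih1 was 2.93-fold lower (adjusted p 4.27e-09), and Ifit1 2.78-fold lower (adjusted p 0.0134), where replicate 1 reads -4.59 and the others -1.32, -1.97 and -1.64. Without replicate 1 the change of Ifit1 was -0.74 (adjusted p 0.0935), which did not pass. On none against reduced NTBC 4 were higher (23.2%) and 8 lower (38.1%), and without that array 14 (24.3%) and 7 (38.7%). The median change of the 32 genes was -0.04 with that array and 0.63 without it, against -0.16 and -0.17 for all genes. Usp18 was 2.3-fold higher (adjusted p 3.83e-05) and Bst2 2.62-fold lower (adjusted p 3.67e-05), and Oas1a was 2.39-fold higher, a call lost with these groups fitted alone (adjusted p 0.0633). From full to no NTBC the summed levels of T and NK cell markers went from 2.27 to 2.99 down to 0.366 to 1.78 (7 of 13 lower) and those of B cell markers from 1.39 to 1.98 down to 0.281 to 1.07 (4 of 5 lower). Macrophage and Kupffer cell markers went from 57.5 to 107.2 up to 129 to 254 (10 of 12 higher) and hepatocyte markers from 2200 to 2276 down to 633 to 679 (8 of 8 lower). The values 0.366, 0.281 and 129 were read on the array that stands apart. Without it 4 of 13 T and NK cell markers and 4 of 5 B cell markers were lower. Macrophage and Kupffer cell markers then had 12 of 12 higher, and hepatocyte markers 8 of 8 lower. The part of these cells in the result was not tested. The arrays without NTBC are female and the others of this genotype male, so that sex and the loss of NTBC cannot be told apart here.

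The difference between genotypes in the response was tested directly, and for the step to no NTBC it cannot be told apart from sex either. For the step to reduced NTBC none of the 32 genes passed (limma), 5 had an unadjusted p under 0.05, and 4 passed without the array that stands apart or with these groups fitted alone, while 6.74% of all genes responded more positively and 3.64% more negatively in Fah-/- p53-/- liver. These shares were 8.02% and 4.68% without that array, and 8.31% and 5.28% with these groups alone. For the step to no NTBC 1 passed, against 4.86% and 4.25% of all genes: Irf1 fell by 1.23 in Fah-/- p53-/- liver and by 0.28 in Fah-/- liver, a difference of -0.96 (SE 0.275, adjusted p 0.03). Without the array that stands apart Irf1 did not pass, and Oasl1 (1.46), Rsad2 (1.40) and Irf7 (1.24) responded more positively and Stat2 (-0.62) more negatively. None passed (limma) when Fah-/- replicate 1 or 4 on full NTBC, Fah-/- replicate 2 or 3 on none, Fah-/- p53-/- replicate 1 or 4 on full NTBC or Fah-/- p53-/- replicate 3 on none was left out.

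The rest of the pathway was read from lists of other genes. Of 8 interferon and cytokine ligands tested, none passed after p21 loss (limma, 2 at an unadjusted p under 0.05). From full to no NTBC in Fah-/- liver 6 of the 8 were lower and 1, Ifnk, was higher, with a median of -0.83 and summed levels of 2.63 to 2.78 on full NTBC and 0.99 to 1.27 on none. As a set the ligands were dim, with mean log2 levels of -3.65 and -4.14, and a summed level rests mostly on the brighter ones. Ifng, the gene of interferon gamma, named here after its values were seen, was well above background on at most 2 arrays of any group but Fah-/- p53-/- on reduced NTBC. Without NTBC Ifnk, a keratinocyte type I interferon, and Ifnlr1, the receptor chain for interferon lambda, stood well above background on all 4 Fah-/- arrays, and on no array on full or reduced NTBC. Both passed the filter on dim probes only through groups without NTBC, so both had to read higher in this step. A higher call of either gene is no result where it enters the counts given here. Of 16 receptor and JAK-STAT genes 8 were higher and 3 lower without NTBC against full NTBC in Fah-/- liver, beside 29.3% and 41.6% of all genes, and after p21 loss 1 was higher and none lower, beside 3.94% and 3.59%. Of 23 sensing and adaptor genes 1 was lower after p21 loss, Adar, at -0.41, which edits double-stranded RNA, a share near that of all genes. Among 40 other interferon-stimulated genes 39 read lower after p21 loss and 4 passed, led by Ifit3b, Isg20 and Trim14, with a median of -0.47. All 17 other targets of interferon gamma read lower (median -0.99), and Gbp5 (-1.23) passed, 1 of the 17. Of 22 genes of antigen presentation 2 passed, both lower: Psmb9 (-1.01) and Tap2 (-0.53). Without the array that stands apart, which is outside this comparison and enters through the shared spread, more genes passed as lower: 14 of the 40 other interferon-stimulated genes, 7 of the 17 interferon gamma targets, 6 of the 22 antigen presentation genes and 2 of the 23 sensing genes, beside 5.23% of all genes. T and NK cell markers then had 3 of 13 lower, where 1 was with it.

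Several probes were at hand for 11 of the 32 genes, and the brightest stood for the gene. The second probe of Ifih1 gave -0.67 (adjusted p 0.0605) after p21 loss, that of Irf9 -0.62 (adjusted p 0.0742) and that of Ifit2 -1.45 (adjusted p 0.0426). For Ifit2 without against full NTBC in Fah-/- liver it gave 0.28 (adjusted p 0.565), where the probe used was higher. Parp14 gave 0.00 there on the brightest probe and -0.92 (adjusted p 0.0033) on another.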

How the data were processed

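Liver RNA (0.1 ug per labelling, Cy3, per the labels' protocols) was hybridised to 1-colour Agilent arrays. The authors deposited scanner files of spot intensity, made with Feature Extraction 10.7.3.1 per the file headers (10.5 in the submitters' processing notes), and a value table on a log2 scale. The processed intensity in the deposited files was set to log2 and scaled to each array's 75th percentile (251.804 to 578.059 intensity units), without control spots and with 2525 flagged spot values set missing. Of 41174 probes, 27506 passed as well above background throughout 1 or more of the groups (all 4 arrays), and the brightest probe stood for each of 20300 genes or unnamed accessions. Accessions were named through RefSeq (GRCm38.p6), giving 14571 features a symbol. The limma package (3.58.1, R 4.3.3) fitted 1 mean per group over 28 arrays (21 residual degrees of freedom), with 13 comparisons, each adjusted by Benjamini-Hochberg over all features. A self-test on simulated data for p21 loss recovered 67% of changes of 1 log2 unit and 89% of changes of 2 units among 20300 features. The simulated features were independent and equally spread in all groups, with no effect of slide, sex or an array that stands apart. These rates therefore need not hold for the measured genes. The number of arrays limits the precision. Per-array values and full statistics were meant for up to 5 genes per comparison with the largest changes past the threshold, and for other pathway genes up to 3 per list; further genes are given in brief. The interferon response genes and all lists were chosen with earlier results of these data known. Alternatives were normexp background correction (offset 50), quantile normalization, the deposited value table, other filters on dim probes, the mean of a gene's probes, the compared groups alone, slide, sex and replicate blocks, and each array left out.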

Additional observations from a re-analysis of the deposited data

Results flagged for a closer look

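Replicate 1 of Fah-/- p53-/- liver without NTBC lay far below the other 3 arrays of its group, past Dixon's 95% critical value, for 6 genes: Oas3 (log2 level -4.75), Dhx58 (-2.92), Bst2 (2.24), Ifit2 (-3.62), Irf7 (-1.82) and Ifi44 (-3.48).

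Replicate 3 of Fah-/- p53-/- liver on reduced NTBC lay far above the others of its group for Igtp (5.63), Ifit2 (-2.40), Ifi44 (-1.11) and Tap1 (-0.10). Ifit2 (-2.39) on replicate 4 of Fah-/- liver on reduced NTBC, Ifih1 (1.51) on replicate 2 of that group and Tap1 (-0.33) on replicate 4 of Fah-/- p53-/- liver on full NTBC lay apart likewise. In all, 13 of 147 sets of 4 arrays (1 gene in 1 group) passed the critical value, and chance flags about 1 in 20. These sets cover the genes given full statistics in at least 1 comparison, not all 32 measured.

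Irf1 passed the test for a different response to the loss of NTBC in the 2 genotypes, with an interaction of -0.96 (limma, adjusted p 0.03). Its call was lost in 10 of 25 alternatives, among them the fit without the array that stands apart, and the difference cannot be told apart from sex.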

How the results depend on the processing

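Counts are of the 32 genes past an adjusted p of 0.05 (limma). Leaving out 1 array at a time gave 11 to 18 in Fah-/- liver for no against full NTBC, 10 to 16 for none against reduced and 3 to 9 for reduced against full. It gave 14 to 20, 10 to 21 and 4 to 9 for the same steps in Fah-/- p53-/- liver, 0 to 4 for each genotype-by-dose difference, 2 to 17 for p21 loss, 2 to 7, 1 to 3 and 3 to 5 for p53 loss on full, reduced and no NTBC, and 2 to 23 between the double mutants. Normexp background correction gave 8, 7 and 1 for the Fah-/- steps, 10 for none against full in Fah-/- p53-/- liver, 0 for the genotype difference without NTBC, 1 for p21 loss, 1, 0 and 2 for p53 loss on full, reduced and no NTBC and 1 between the double mutants. It turned Bst2 (0.095), Ifi35 (0.13) and Stat2 (0.021) for reduced against full NTBC in Fah-/- p53-/- liver, and Oas3 for none against full (-0.042 in Fah-/- and -0.32 in Fah-/- p53-/- liver). The compared groups alone gave 15 and 9 for reduced against full in Fah-/- and Fah-/- p53-/- liver, 4 for the genotype difference on reduced NTBC, 2 for p21 loss, 2 for p53 loss on reduced NTBC and 0 between the double mutants. The deposited table gave 8 for reduced against full in Fah-/- liver, 2 for each genotype difference and 2 for p53 loss on reduced NTBC. Quantile normalization gave 2 for reduced against full in Fah-/- p53-/- liver. No filter gave 0 for the genotype difference without NTBC, 5 for p21 loss, 2 for p53 loss on reduced NTBC and 3 between the double mutants. Arrays of 1 sex gave 2 for p21 loss and 2 between the double mutants, or 22 there without the array that stands apart. Slide as a fixed block gave 0 for p21 loss, p53 loss without NTBC and the double mutants, and 1 and 0 for the last 2 without that array. Within the shared slide the counts were 0, 2 and 2. The replicate block moved p53 loss on reduced NTBC to 2 and no other count by over 1.5 times. Same-numbered arrays correlated at -0.226 to 0.357, with 14 of 44 pairs over 0.1. Differently numbered arrays were not set beside them, so this cannot decide whether the numbers pair the arrays, and the main fit treats them as unpaired. The causes were not tested. Of 49 named changes, 16 kept their call under every alternative run and 5 reversed under at least 1.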
